A study of Drosophila melanogaster with 48 samples.

Results

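The Cpr genes of Drosophila melanogaster encode cuticle proteins that carry the Rebers and Riddiford consensus, a stretch of residues that binds chitin. Cuticle is a composite of chitin fibres and such proteins, secreted by the epidermis over the body surface, by the tracheae that carry air into the brain, by the foregut and hindgut, and by the cells that form the corneal lens. Neurons and glia are not known as cuticle-secreting cells, and many Cpr genes are known for transcription in short bursts around the molts. The genes were chosen by name: each gene of the count tables whose FlyBase symbol is Cpr followed by a digit, which gave 70 of 17869 genes. The digits and the first capital letter of a symbol give the cytological division of the gene. The 70 genes lie in 33 divisions, of which 12 hold more than 1 Cpr gene and account for 49 of the 70.

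RNA was sequenced from dissected brains of flies descended from nSyb-GAL4 males, which carry a neuronal driver, and w1118 females. D3Inj flies received 1 session of headfirst impacts on day 3 after eclosion, a very mild head trauma, and sham flies were held in the injury vial without impacts. There were 4 kinds of fly, namely males, females mated to SP0 males (which lack sex peptide, a seminal protein that changes the behaviour of mated females), virgin females and females mated to wildtype males. Brains were taken on day 45 (6 weeks after the session) or day 4 (1 day after it), which gave 16 groups of 3 libraries, each described as an independent cohort of 40 flies.

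The total count per library ran between 21495740 and 60637359. In 47 of the 48 tables the column header names another sample than the deposit record does. Headers were used here: their sham names equal sample titles, while reading the word young in the other headers as D3Inj is an inference. The X-chromosome dosage RNA roX1, abundant in males, was at 5520 CPM or more in each male library and at 56.7 CPM or less in each female library by the headers, whereas by the record 20 libraries would go against their sex. CPM is the usual count per unit of library size, here with TMM-scaled library sizes. The label brain was checked with markers: each of 4 neuron and 4 glia markers had counts in every library, at no less than 471 and 60.5 CPM per marker. Such counts cannot show that the tissue was brain alone. Over all libraries fat body markers summed to a median of 3740 CPM and hemocyte markers to 430 CPM, against 1930 CPM for the glia markers. The summed neuron markers had a median of 5350 CPM on day 45 against 7190 CPM on day 4, and the summed glia markers 1380 CPM against 2450 CPM. By the age test described below, 4 of 4 neuron markers were lower on day 45 at an adjusted p under 0.05. Of the 4 glia markers 2 were higher and 2 lower, so the glia sum does not stand for each marker. Sham virgin females 2 and 3, sham wildtype-mated female 3 and D3Inj male 3 of day 4 stood apart with summed gut markers of 1190 to 1830 CPM, against a median of 4.47 CPM over all libraries. Those sham virgin females had 22.2 and 22.5 CPM of the photoreceptor gene ninaE, against 60.8 CPM in library 1. Sham SP0-mated females 2 and 3 of day 4 had 253 and 249 CPM of ninaE, against 32.2 CPM in library 1. Whether such alike libraries came from separate cohorts was not tested, and the tests counted them as separate. The labels name no batch, so whatever differed between the day 45 and the day 4 preparations cannot be told apart from age. In bulk RNA, fewer cells of a type and less RNA per cell cannot be told apart either.

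Cpr transcripts were scarce in these brains. Together the 70 genes gave 41.4 CPM on average, between 33.1 CPM in sham SP0-mated female 3 of day 45 and 54.7 CPM in D3Inj male 3 of day 4. Per kb of exon, which allows levels to be compared between genes, the median Cpr gene stood at 0.0652 CPM per kb and the median gene of the tables at 2.14 CPM per kb. 8 Cpr genes lay above that median and 0 among the highest 10% of genes. At the low end 6 genes (Cpr23B, Cpr49Ad, Cpr57A, Cpr65Ax1, Cpr65Ax2 and Cpr67Fb) had no count in any of the 48 libraries. Cpr57A shares its whole exon length with Obp57d on the same strand, and Cpr65Ax1 and Cpr65Ax2 are near-identical copies, so reads of these genes may have gone uncounted. 40 of the 70 genes averaged less than 0.1 CPM, 12 averaged more than 1 CPM, and 15 had a count in each of the 48 libraries.

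The highest gene per kb was Cpr11B on the X chromosome, at 6.64 CPM per kb (5.43 ± 1.17 CPM, SD over 48 libraries), with no library under 3.36 CPM. 4 neighbouring genes of division 64A followed among the next 7 places: Cpr64Ab (3.54 CPM per kb), Cpr64Aa (3.10), Cpr64Ac (2.39) and Cpr64Ad (2.16). They lie within 3L:4207838-4216414 (dm6), were measured in each library and together gave 9.31 CPM, so this 1 cluster had a higher summed level than the 7 genes of 47E (1.34 CPM), the 8 genes of 49A (1.22 CPM) and the 7 genes of 65A (0.316 CPM) combined. Cpr73D had the highest CPM of all, at 9.88 ± 1.01 CPM, but per kb of its long exons it stood at 3.26 CPM, level with Cpr78Cc. Its exons overlap those of Ogdh, a gene of the citric acid cycle, on the other strand over 294 bases. The strand setting of the authors' counting is not stated in the material read here, so over those bases reads of the 2 genes may not have been told apart. Cpr67B (2.44 CPM per kb), Cpr51A (2.11) and Cpr92A (1.28) complete the 10 highest genes. Levels of neighbours in this order overlapped widely between libraries, as the plot of the 20 highest genes shows.

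**Figure D1:**
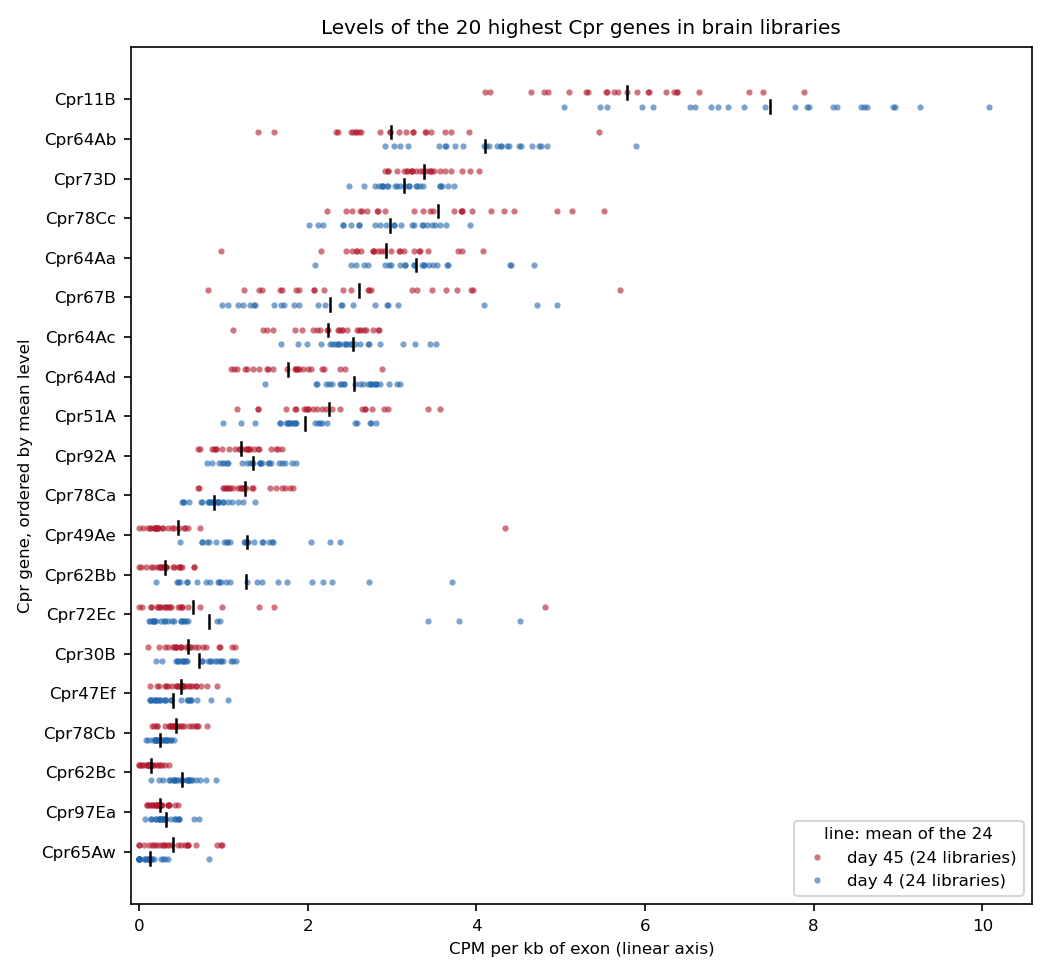
Level of the 20 highest Cpr genes in CPM per kb of exon (linear axis), 1 point per library, with day 45 (24 libraries) above day 4 (24 libraries) and a black line at each mean. Cpr11B lies highest, at 6.64 CPM per kb over all 48 libraries, Cpr49Ae and Cpr62Bb sit lower on day 45 apart from 1 high library of Cpr49Ae, and single libraries of Cpr72Ec stand far to the right.

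For the tests, genes with too few counts in all groups were left out, and 34 of the 70 genes passed this filter over the 48 libraries. The other 36 comprise the 6 genes with no count and 30 whose highest mean was 0.0876 CPM, that of Cpr66D, which encodes a corneal lens protein. Genes that passed could do so through the group in which they are high, so the 34 are not a sample of the 70. Filtered within a day, 3 of them passed on day 4 only (Cpr100A, Cpr49Ag and Cpr97Eb). Another 5 passed on day 45 only, among them Cpr65Aw, Cpr60D and Cpr11A. The age differences of these genes are therefore not independent of the filter. A gene is called where edgeR's quasi-likelihood test gave an adjusted p (Benjamini-Hochberg over all features tested) under 0.05.

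Most calls of Cpr genes were between the ages. Day 45 was set against day 4 within each of 8 pairs of groups (4 kinds, D3Inj or sham), and the mean of the 8 differences was tested. By that mean 19 of the 34 tested Cpr genes were called, 8 of them higher and 11 lower on day 45. Age moved most of the transcriptome: 66.1% of all features tested were called, 33.7% as higher and 32.4% as lower, so the share of Cpr genes was not above the background. The median log2 fold change was -0.16 over the 34 Cpr genes and -0.002 over all features, and setting the 5 genes that had a group at 0 counts to their bounds left the Cpr median at -0.16.

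The falls of largest size were in divisions 62B and 49A and in Cpr100A. Cpr62Bb and Cpr62Bc lie next to each other on 3L (3L:1832636-1835164 and 3L:1840281-1842084). Cpr62Bb had a lowest, median and highest level of 0, 0.297 and 0.646 CPM over the 24 libraries of day 45, against 0.194, 0.993 and 3.68 CPM over the 24 of day 4. Pooled over the 24 libraries of each day, its counts per summed TMM library size were 4.06-fold lower on day 45 (the pooled level; log2 fold change -1.92 ± 0.26 SE, adjusted p = 1.77e-08). Cpr62Bc had 0, 0.146 and 0.40 CPM on day 45, against 0.164, 0.573 and 1.03 CPM on day 4, a 3.29-fold lower pooled level (log2 fold change -1.86 ± 0.22 SE, adjusted p = 8.98e-10). Both genes had a lower mean on day 45 in 8 of 8 pairs. The day 45 libraries lay wholly below those of day 4 in 7 pairs for Cpr62Bc and in 5 for Cpr62Bb, and single pairs were called in 5 of 8 for each.

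Cpr49Ae and Cpr49Ag lie on 2R with Cpr49Af between them (2R:12402216-12405108 and 2R:12407793-12408523). Cpr49Ae had 0, 0.266 and 5.15 CPM on day 45, against 0.581, 1.49 and 2.82 CPM on day 4 (2.42-fold lower in pooled level, log2 fold change -1.93 ± 0.22 SE, adjusted p = 3.51e-10). The value of 5.15 CPM belongs to sham male 2 of day 45, while no other library of day 45 exceeded 0.851 CPM. In sham males the day 45 libraries had 0.628, 5.15 and 0.328 CPM, against 1.49, 2.42 and 2.69 CPM on day 4. The log2 fold change of that pair was -0.07 with the high library (adjusted p = 0.937) and -2.13 without it (adjusted p = 0.00101), and the mean of 8 pairs moved to -2.19. In the other 7 pairs the day 45 and day 4 libraries of Cpr49Ae did not overlap. Cpr49Ag was rarer and passed the filter on day 4 only: 16 of its 24 day 45 libraries had no count, against 1 of 24 on day 4. Its pooled level was 6.79-fold lower on day 45 (27 counts in all against 159, adjusted p = 5.04e-06). In sham SP0-mated females it fell by at least 13.4-fold, since the day 45 libraries had 0 counts and the day 4 libraries 41. Of these 41 counts, 29 were in library 2 (0.812 CPM), and library 3 had 0.235 CPM. The call of this pair held on leaving out any 1 of its 6 libraries (adjusted p up to 0.0371). The call in D3Inj males was lost on leaving out any 1 of 4 libraries, with adjusted p up to 0.259.

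Cpr100A, which passed the filter on day 4 only, had the largest fall in pooled level of the 11 genes called as lower. It had 0, 0 and 0.159 CPM (lowest, median and highest) on day 45, against 0.056, 0.218 and 0.522 CPM on day 4. 15 of 24 day 45 libraries had no count, while 0 of 24 day 4 libraries lacked one, and the pooled level was 7.11-fold lower on day 45 (36 counts in all against 222, adjusted p = 2.95e-10). Where a day 45 group had no count the fall is a lower bound, set by 3 counts over the group: at least 11.3-fold in D3Inj virgin females, 9.52-fold in sham wildtype-mated females and 4.24-fold in sham SP0-mated females. The fitted log2 fold change of -3.95 depends on the prior count for these groups. The groups of the 2 days did not overlap in 7 of 8 pairs.

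In the abundant 64A cluster the falls were small and uneven. Cpr64Ad had 1.05, 1.78 and 2.77 CPM on day 45, against 1.44, 2.54 and 2.97 CPM on day 4 (log2 fold change -0.55 ± 0.08 SE, adjusted p = 1.24e-07), lower on average in 8 of 8 pairs and without overlap in 5. Cpr64Ab had 0.779, 1.64 and 3.01 CPM on day 45, against 1.61, 2.31 and 3.25 CPM on day 4 (log2 fold change -0.48 ± 0.10 SE, adjusted p = 2.54e-05). The cluster's other members, Cpr64Aa (-0.17 ± 0.09) and Cpr64Ac (-0.17 ± 0.09), were not called (adjusted p = 0.0865 and 0.0967), and whether the members differ from each other was not tested. Cpr11B, the highest gene, had 3.36, 4.69 and 6.45 CPM on day 45, against 4.12, 6.21 and 8.25 CPM on day 4 (log2 fold change -0.37 ± 0.06 SE, adjusted p = 2.3e-06). Cpr47Ee (-1.06 ± 0.34, adjusted p = 0.00551) and Cpr97Eb (-0.98 ± 0.22, adjusted p = 0.00019) also fell, Cpr97Eb being a gene that passed the filter on day 4 only. The call of Cpr35B (-0.80 ± 0.35, adjusted p = 0.0394) was lost on leaving out any 1 of 22 of the 48 libraries, with adjusted p up to 0.108.

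All 3 genes of division 78C, also on 3L, were called as higher on day 45. Cpr78Cb (3L:21294492-21296698) had 0.322, 0.882 and 1.70 CPM on day 45, against 0.167, 0.506 and 0.872 CPM on day 4 (log2 fold change 0.82 ± 0.16 SE, adjusted p = 3e-05), with a higher mean in 8 of 8 pairs. Cpr78Ca had 0.608, 1.06 and 1.60 CPM on day 45, against 0.44, 0.779 and 1.2 CPM on day 4 (log2 fold change 0.50 ± 0.10 SE, adjusted p = 2.37e-05), higher in 7 of 8 pairs. The exception was D3Inj SP0-mated females, with 0.623, 0.608 and 0.941 CPM on day 45 against 1.03, 0.819 and 0.964 CPM on day 4. Cpr78Cc rose least (log2 fold change 0.24 ± 0.09 SE, adjusted p = 0.0185), and leaving out sham wildtype-mated female 3 of day 45 ended its call (0.19, adjusted p = 0.0506).

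Of the other rises, those of Cpr65Aw, Cpr60D and Cpr11A were in rare transcripts that passed the filter on day 45 only. That of Cpr73D was in the gene of highest CPM, and Cpr47Ef is described further on. Cpr65Aw had 0, 0.156 and 0.441 CPM on day 45, against 0, 0.041 and 0.372 CPM on day 4, and 2 libraries of day 45 but 9 of day 4 had no count. Its pooled level was 3.06-fold higher on day 45 (173 counts in all against 49, adjusted p = 8.57e-05). Cpr60D rose 3.45-fold in pooled level (143 counts in all against 36, adjusted p = 0.00581), and the male pairs were called. D3Inj males had 0.102, 0.143 and 0.427 CPM of Cpr60D on day 45 against 0, 0.031 and 0 CPM on day 4, and sham males 0.144, 0.384 and 0.492 CPM against 0.0372, 0.031 and 0 CPM. With 1 and 2 counts on day 4, the ratios of these pairs were 23.0 (exact 95% counting interval 3.84 to 935) in D3Inj males and 13.9 (3.61 to 119) in sham males. Leaving out any 1 of 3 libraries ended the D3Inj call (adjusted p up to 0.122), and any 1 of 5 the sham call (up to 0.11). Cpr11A rose 3.56-fold in pooled level (78 counts against 19, adjusted p = 0.0321), a call lost on leaving out D3Inj wildtype-mated female 3 or sham virgin female 3 of day 45, each of which left a group at 0 counts. Cpr73D was 1.07-fold higher in pooled level (log2 fold change 0.10 ± 0.04 SE, adjusted p = 0.0327), and 13 of 48 single libraries, when left out, ended that call, with adjusted p up to 0.07.

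**Figure D2:**
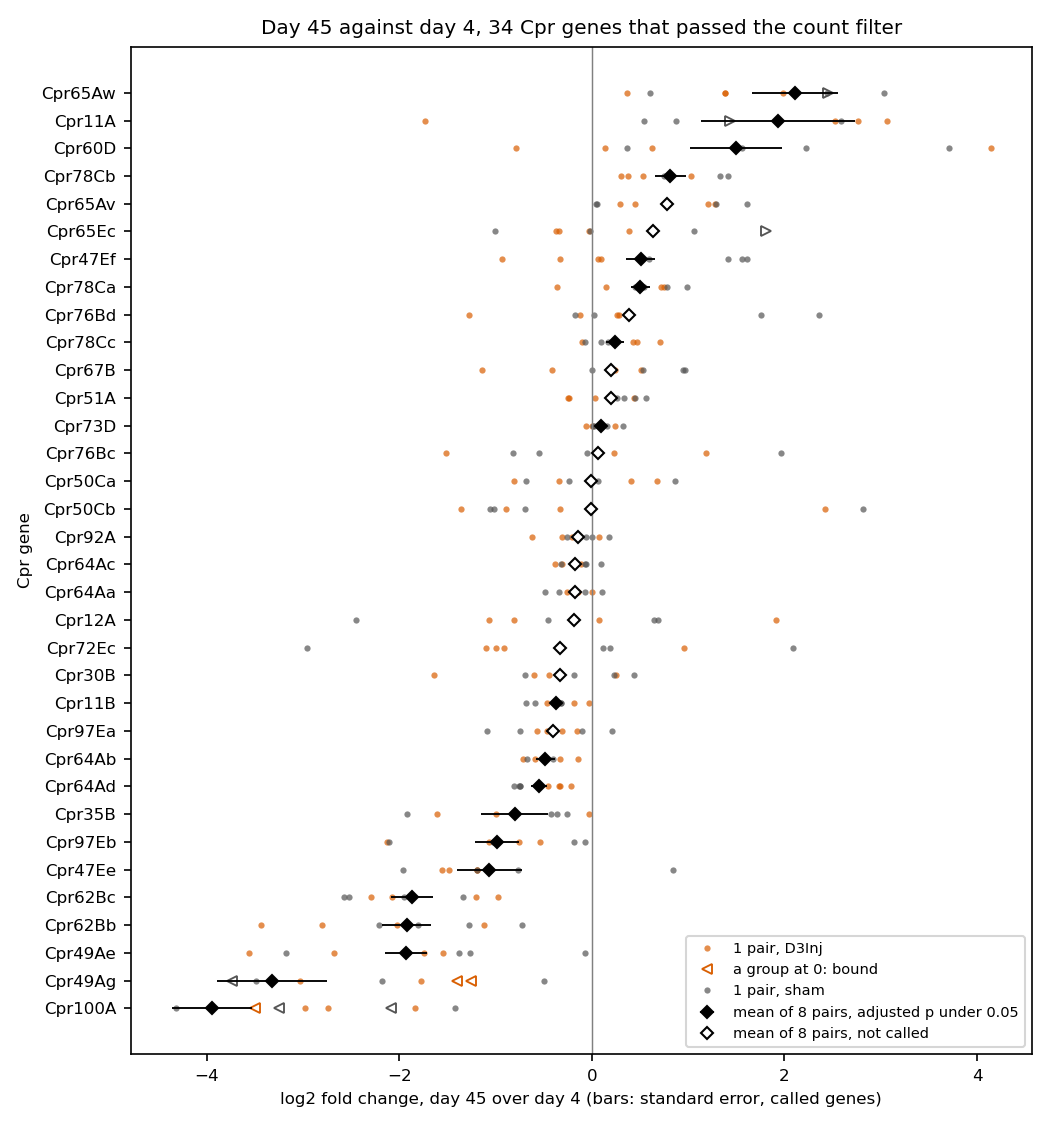
Log2 fold change of day 45 over day 4 for the 34 tested Cpr genes: diamonds are the mean of 8 pairs (filled where called, with standard error bars), dots the single pairs (D3Inj orange, sham grey) and open triangles the bounds for pairs in which 1 group had 0 counts. 11 filled diamonds lie below 0, down to Cpr100A, and 8 above it, up to Cpr65Aw.

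Within single pairs, fewer Cpr genes were called, and of the 51 calls 34 were lost on leaving out at least 1 of the 6 libraries. In males 5 of the 34 were called in D3Inj flies (2 higher, 3 lower), against 29.3% of all features, and 10 in sham flies (6 higher, 4 lower), against 33.4%. The SP0-mated females had 5 calls in D3Inj flies (0 higher, 5 lower; all features 31.9%) and 9 in sham flies (3 higher, 6 lower; all features 27.9%). Virgin females had 4 calls in D3Inj flies (1 higher, 3 lower; all features 26.9%) and 5 in sham flies (2 higher, 3 lower; all features 28.6%). In wildtype-mated females there were 7 calls in D3Inj flies (1 higher, 6 lower; all features 32.2%) and 6 in sham flies (1 higher, 5 lower; all features 28.2%). Counted without a test, 6 Cpr genes (Cpr100A, Cpr49Ae, Cpr49Ag, Cpr62Bb, Cpr62Bc and Cpr64Ad) had day 45 libraries wholly below day 4 in at least 5 of 8 pairs, as had 14.6% of all features, and 0 lay wholly above, against 16.3% of all features. Of the 6, Cpr100A and Cpr49Ag passed the filter on day 4 only, so this count is not independent of the filter. A joint test of whether the age change in sham flies differed among the 4 kinds called 0 of 34 Cpr genes (0.384% of all features, 3 Cpr genes at an unadjusted p under 0.05, and 1 Cpr gene, Cpr72Ec, when either of 2 sham libraries was left out).

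A few genes were called in 1 pair only. Cpr76Bd was higher on day 45 in sham males, at 0.251, 0.128 and 0.164 CPM against 0.0372, 0 and 0.0619 CPM (25 counts against 3, a ratio of 5.65 with an exact 95% counting interval of 1.72 to 29.2, adjusted p = 0.044). That call was lost on leaving out any 1 of 4 libraries, with adjusted p up to 0.185. Cpr30B was lower in D3Inj wildtype-mated females, at 0.078, 0.169 and 0.31 CPM on day 45 against 0.686, 0.327 and 0.703 CPM on day 4 (log2 fold change -1.64 ± 0.52 SE, adjusted p = 0.0139), lost on leaving out any 1 of 3 libraries, with adjusted p up to 0.0899. Counting intervals and bounds cover counting error only.

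**Figure D3:**
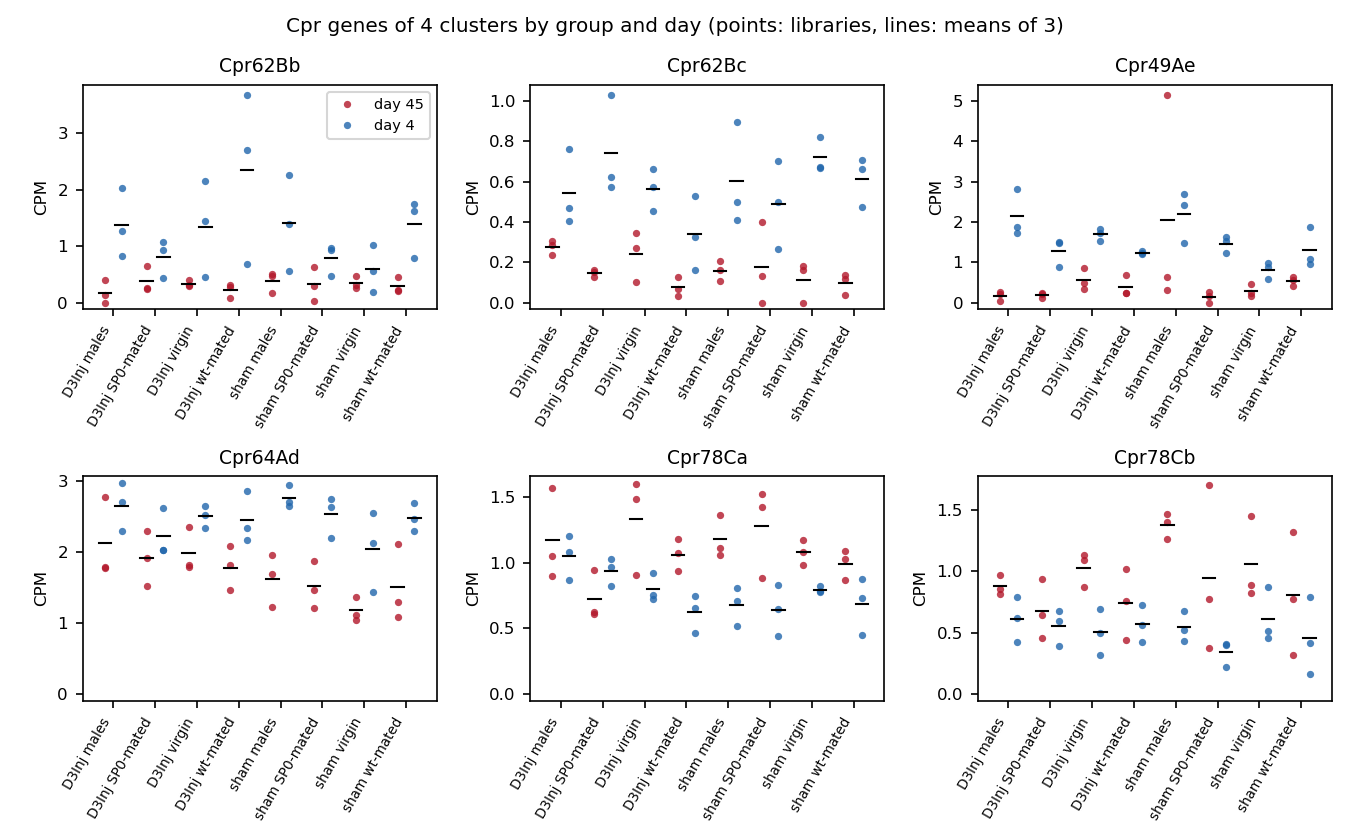
CPM of Cpr62Bb, Cpr62Bc, Cpr49Ae, Cpr64Ad, Cpr78Ca and Cpr78Cb in each library, by group, with day 45 (red) left of day 4 (blue) and a line at the mean of 3. The first 4 genes are lower on day 45 in each pair of means, with 1 high day 45 library of Cpr49Ae at 5.15 CPM in sham males, while Cpr78Cb is higher in each.

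Cpr47Ef (2R:11266915-11272575, FBgn0033603) was the Cpr gene that changed after injury. On day 4, D3Inj males had 1.88, 2.32 and 1.30 CPM, against 0.409, 0.279 and 0.433 CPM in sham males. D3Inj SP0-mated females had 1.27, 1.26 and 0.834 CPM, against 0.70, 0.672 and 0.352 CPM in sham SP0-mated females. In virgin females the D3Inj libraries had 1.36, 0.829 and 0.642 CPM, against 0.291, 0.492 and 0.426 CPM in the sham libraries. In all 4 kinds of fly the D3Inj libraries lay wholly above the sham libraries, wildtype-mated females completing the set with 1.34, 1.08 and 1.5 CPM in D3Inj flies against 0.539, 0.313 and 0.542 CPM in sham flies. Of all features tested on day 4, 0.0137% (Cpr47Ef and Sarm, a gene for a Toll/interleukin-1 receptor domain protein that acts in axon degeneration) were wholly higher in all 4 kinds, and 0% were wholly lower.

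Averaged over the 4 kinds, Cpr47Ef was higher in D3Inj flies on day 4 by 1.48 ± 0.17 on the log2 scale (SE, adjusted p = 0.00026). It was the 1 Cpr gene called among 25 tested, with 0.0273% of all features called. Leaving out each of the 24 libraries in turn kept the call, with log2 fold changes of 1.39 to 1.54 and adjusted p of 0.000152 to 0.00114. RLE scaling, no filter, the replicate block, DESeq2 and all 48 libraries gave adjusted p of 1.07e-09 to 0.000404. Without the libraries high in gut markers the log2 fold change was 1.68, and without those high in Cpr72Ec 1.46, each with 1 library left in a sham group. With the deposit record in place of the headers 0 Cpr genes and 0 features in all were called. In single kinds the log2 fold change was 2.29 ± 0.35 in males (adjusted p = 0.0196, with 0.00683% of all features called), 0.96 ± 0.34 in SP0-mated females (adjusted p = 1, with 0.00683% called), 1.19 ± 0.35 in virgin females (adjusted p = 0.645, with 0.0547% called) and 1.5 ± 0.35 in wildtype-mated females (adjusted p = 0.917, with 0% called). The call in males was lost on leaving out D3Inj male 1 or 2 or any of the 3 sham males, with adjusted p up to 0.174, and in the fits of 6 and of all 48 libraries (0.236 and 0.107). A joint test found no difference of the injury effect among the 4 kinds (adjusted p = 1, unadjusted p = 0.0654; 0% of all features called, with 2 Cpr genes at an unadjusted p under 0.05), which does not show that the kinds responded alike.

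Cpr47Ef lies tail to tail with Cpr47Ee, 58 bases away on the other strand. Cpr47Ee had a mean D3Inj difference of 0.36 ± 0.43 on the log2 scale on day 4 (adjusted p = 1). Among the other tested Cpr genes, Cpr51A (0.38 ± 0.13), Cpr92A (0.32 ± 0.13) and Cpr67B (0.52 ± 0.23) reached an unadjusted p under 0.05 in the mean of the 4 kinds, at 0.00736, 0.0196 and 0.0347, and none of them was called (adjusted p = 1 for each). The median D3Inj difference on day 4 was 0.17 over the 25 Cpr genes tested and -0.001 over all features.

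On day 45 the D3Inj and sham libraries of Cpr47Ef overlapped in each kind of fly. D3Inj males had 0.959, 1.37 and 0.522 CPM, against 1.02, 1.28 and 0.983 CPM in sham males. D3Inj SP0-mated females had 1.48, 1.60 and 0.457 CPM, against 1.12, 0.696 and 0.752 CPM in sham SP0-mated females. Neither pair was apart, and the same held for the remaining females. D3Inj virgin females had 0.286, 0.851 and 1.13 CPM, against 0.666, 1.13 and 1.49 CPM in sham virgin females, and D3Inj wildtype-mated females had 1.07, 1.15 and 2.02 CPM, against 1.32, 1.77 and 1.19 CPM in sham wildtype-mated females. The mean injury difference on day 45 was -0.09 ± 0.23 on the log2 scale (adjusted p = 1), and 0% of all features were called. The injury difference on day 45 minus that on day 4 was -1.57 ± 0.30 (unadjusted p = 5.16e-06, adjusted p = 0.0807 with edgeR; 0% of all features called), while DESeq2 called it (-1.57 ± 0.30, adjusted p = 0.00136). Leaving out 1 library at a time gave adjusted p of 0.0328 to 0.223, with the call made in 4 of 48 cases.

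Over the 8 age pairs Cpr47Ef was higher on day 45 (0.51 ± 0.15, adjusted p = 0.00283), and 3 of the 4 sham pairs were called: males (log2 fold change 1.56 ± 0.45, adjusted p = 0.00587), virgin females (1.42 ± 0.45, adjusted p = 0.0136) and wildtype-mated females (1.61 ± 0.44, adjusted p = 0.00448). The call in virgin females was lost without sham virgin female 1 of day 4 (1.27, adjusted p = 0.0574) and without sham virgin female 3 of day 45 (1.17, adjusted p = 0.0783). Without the libraries high in gut markers the log2 fold change in virgin females was 1.91, with 1 library left in the day 4 group. Sham SP0-mated females had 0.59 ± 0.43 (adjusted p = 0.343). In D3Inj flies the same contrast gave -0.93 ± 0.39 in males (adjusted p = 0.0655), 0.07 ± 0.40 in SP0-mated females, -0.33 ± 0.41 in virgin females and 0.10 ± 0.39 in wildtype-mated females, 0 of 4 being called. In D3Inj males the call was made without D3Inj male 3 of day 4 (-1.12, adjusted p = 0.0464) or D3Inj male 2 of day 45 (-1.30, adjusted p = 0.0278). These age contrasts share their libraries with the injury contrasts and are not separate evidence.

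**Figure D4:**
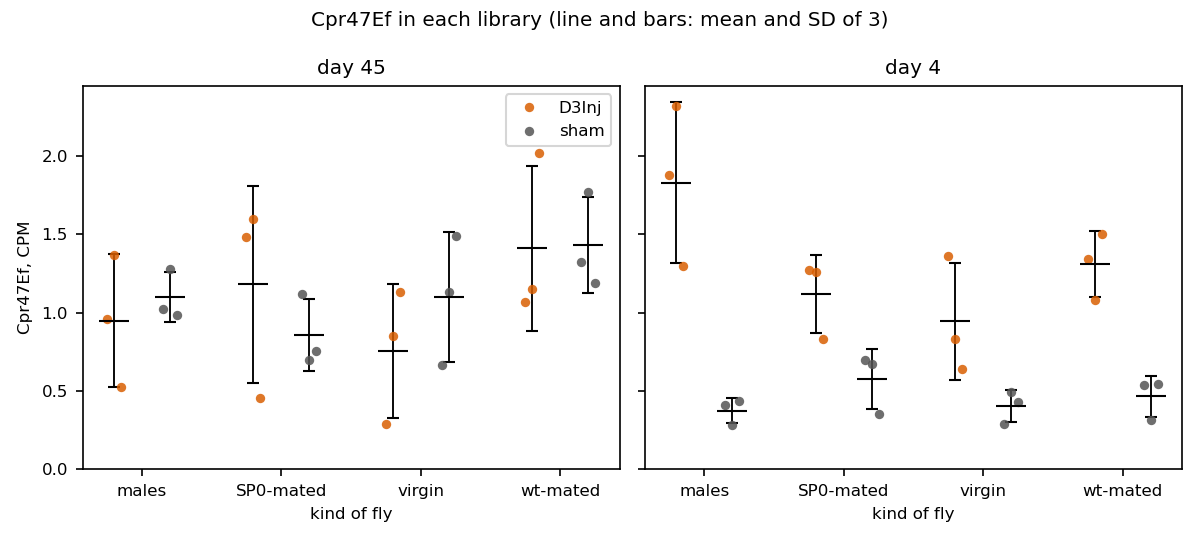
CPM of Cpr47Ef in each library on day 45 (left) and day 4 (right), by kind of fly, with D3Inj (orange) left of sham (grey) and the mean and SD of 3 libraries. On day 4 the D3Inj libraries (0.642 to 2.32 CPM) sit above the sham libraries of their kind (0.279 to 0.70 CPM), and on day 45 they overlap.

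No other Cpr gene was called after injury by edgeR or DESeq2 on day 4. At an unadjusted p under 0.05 there were 2 Cpr genes in males, 5 in SP0-mated, 2 in virgin and 2 in wildtype-mated females, and 4 in their mean. On day 45, edgeR called 0 of 27 Cpr genes in males, SP0-mated, virgin or wildtype-mated females, in their mean, or in the joint test among kinds, where also 0% of all features were called, with 4, 1, 2, 1, 1 and 5 Cpr genes at an unadjusted p under 0.05. In none of the features tested on day 45 were D3Inj libraries wholly higher (0%) or wholly lower (0%) in all 4 kinds. Cpr49Ae in males came nearest: D3Inj males of day 45 had 0.265, 0.206 and 0.0474 CPM, against 0.628, 5.15 and 0.328 CPM in sham males, with the groups apart (log2 fold change -3.52 ± 0.80, unadjusted p = 0.000201, adjusted p = 0.487). DESeq2 called this difference (-3.55 ± 0.76, adjusted p = 0.0226), as did edgeR on all 48 libraries (-3.53 ± 0.62, adjusted p = 0.024). Its size rests on the sham male library at 5.15 CPM.

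That library, sham male 2 of day 45, was also the highest in Cpr72Ec (6.96 CPM), which encodes a protein of the corneal lens. The median library had 0.535 CPM of Cpr72Ec, and 3 others stood apart at 6.54 and 5.49 CPM (sham SP0-mated females 3 and 2 of day 4) and 4.95 CPM (D3Inj male 3 of day 4). Values of Cpr72Ec in these groups were therefore split, with 2.32, 6.96 and 0.737 CPM in sham males of day 45 and 0.566, 5.49 and 6.54 CPM in sham SP0-mated females of day 4. ninaE, the major rhodopsin of the photoreceptors, was at 213 to 314 CPM in the 4 libraries, against a median of 69.6 CPM over all and up to 262 CPM in the others. retinin, another lens gene, was at 1.61, 1.23 and 2.47 CPM in the 3 high libraries of day 4, in the same order, against a median of 0.156 CPM, but at 0.0365 CPM in sham male 2 of day 45. Crys, also of the lens, was at 0.0914 to 0.317 CPM in the 4 libraries, against a median of 0.133 CPM and up to 0.652 CPM in the others, and the lens gene Cpr66D at 0.088 to 0.252 CPM, against a median of 0.0672 CPM and up to 0.377 CPM in the others. Summed gut markers were at 146 CPM in sham male 2 of day 45, the highest of that day, against a day 45 median of 3.15 CPM, and D3Inj male 3 of day 4 is 1 of the libraries high in gut markers named above. The part of gut RNA in these values was not tested. Cpr49Ag was at 0.235, 0.812 and 0.634 CPM in the 3 high libraries of day 4, in the same order, and at 0.11 CPM in sham male 2 of day 45. Its median was 0.0688 CPM, with up to 0.504 CPM in the others. How much of the Cpr72Ec or Cpr49Ag signal came from attached eye tissue was not tested.

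**Figure D5:**
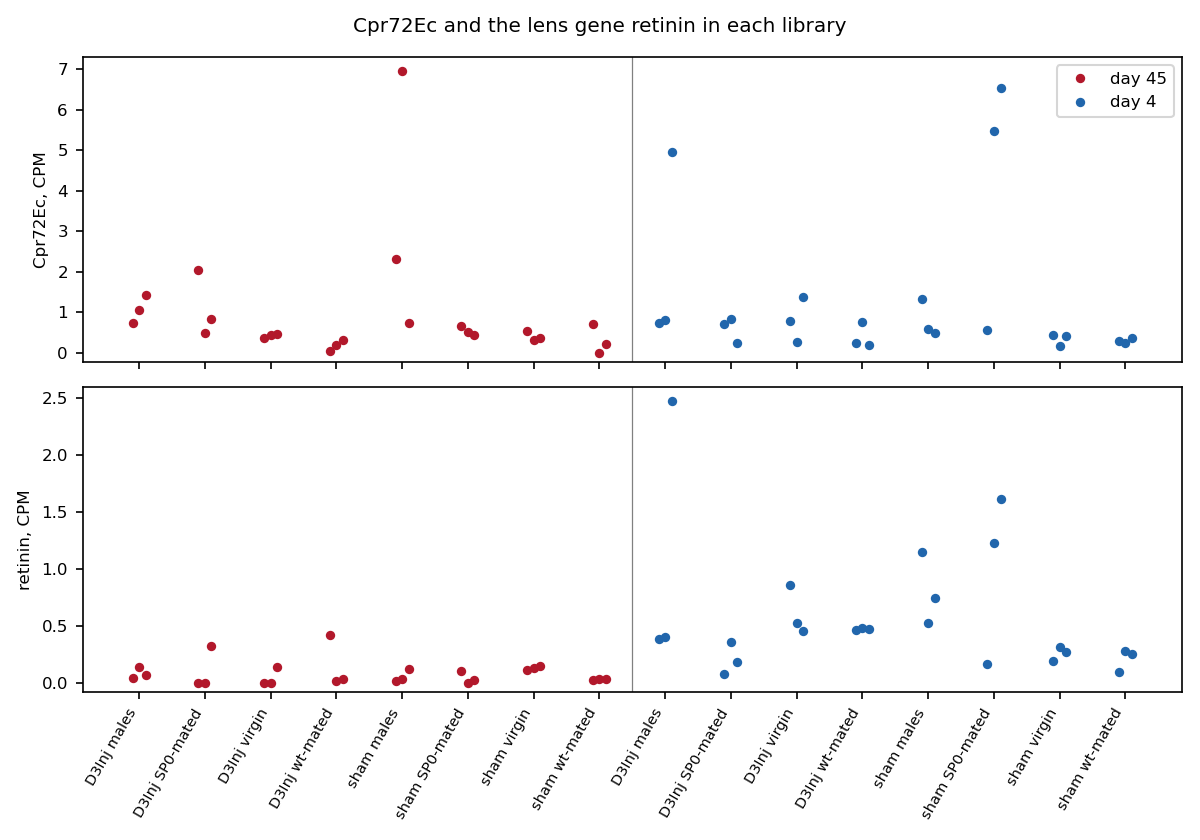
CPM of Cpr72Ec (top) and retinin (bottom) in each library, 16 groups of 3, day 45 (red) left of day 4 (blue), D3Inj left of sham within each day. The 4 libraries of Cpr72Ec at 4.95 CPM or more stand apart from the rest, which reach 2.32 CPM, and 3 of these 4 are the highest in retinin.

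Each call of Cpr72Ec involved those libraries. Against wildtype-mated females, sham males of day 45 had 2.32, 6.96 and 0.737 CPM, against 0.703, 0 and 0.21 CPM in sham wildtype-mated females (log2 fold change 3.38 ± 0.73, adjusted p = 0.00536). This was the 1 Cpr gene of 27 called between the sexes on day 45 (4.25% of all features called), and without sham male 2 it was not called (2.28, adjusted p = 0.0979). Between day 45 and day 4 Cpr72Ec was called as higher in sham males (2.09 ± 0.76, adjusted p = 0.0289) and as lower in sham SP0-mated females (-2.95 ± 0.79, adjusted p = 0.0037). Without the 4 high libraries these values were 0.97 (adjusted p = 0.32) and -0.07, the latter with 1 library left in the day 4 group. Those libraries were picked for their level of Cpr72Ec itself, so calls lost without them are not a separate test. In sham males the call was lost without sham male 2 of day 45 (0.98, adjusted p = 0.395) and also without sham male 2 or 3 of day 4.

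With sex and mating, edgeR called no other Cpr gene in the fits of 24 libraries. On day 45, 3 Cpr genes had an unadjusted p under 0.05 between the sexes, and the fit of all 48 libraries called Cpr49Ae too (log2 fold change 1.97 ± 0.58, adjusted p = 0.0365). Between sham males and sham wildtype-mated females of day 4, 0 of 25 Cpr genes were called (6.25% of all features), with 1 at an unadjusted p under 0.05, Cpr49Ae (log2 fold change 0.78 ± 0.28, adjusted p = 0.12). Cpr49Ae was called without the 4 libraries high in gut markers (1.11 ± 0.30, adjusted p = 0.0476), and also without 1 of these alone, sham wildtype-mated female 3 (1.12, adjusted p = 0.0373). Against wildtype-mated females of day 4, 0 Cpr genes were called in SP0-mated females (0% of all features, 2 Cpr genes at an unadjusted p under 0.05) or in virgin females (0.0615%, 1 Cpr gene). DESeq2 called Cpr72Ec in the SP0-mated females (3.81 ± 0.90, adjusted p = 0.0219), where edgeR gave an adjusted p of 0.277. On day 45, 0 Cpr genes were called in SP0-mated females (0.0131% of all features) or virgin females (0%), with 0 at an unadjusted p under 0.05.

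The rest of the cuticle pathway was followed with 4 lists of genes. Among 28 tested structural cuticle proteins of other families, 7 rose and 2 fell between day 45 and day 4 in the mean of 8 pairs, with a median log2 fold change of 0.18, where 33.7% of all features rose, 32.4% fell and the median was -0.002. These shares are the background of the other lists as well. Filtered within a day, 20 genes of this first list passed on day 4 and 24 on day 45. The age differences of some of its genes are therefore not independent of the filter. Vajk1 (0.95 ± 0.13, adjusted p = 4.36e-08) and TwdlG of the Tweedle family (0.65 ± 0.03, adjusted p = 1.51e-21) rose, while retinin fell (-2.72 ± 0.38, adjusted p = 3.64e-08) and so did Tb, which encodes another Tweedle protein (-0.17 ± 0.04, adjusted p = 0.000764). Of 18 tested genes of chitin synthesis and binding, 5 rose and 7 fell (median -0.20). The chitin synthase gene kkv rose (0.75 ± 0.24, adjusted p = 0.0056), whereas Gfat1, for the first enzyme of the pathway to the chitin precursor, fell (-0.65 ± 0.09, adjusted p = 7.66e-08), as did the chitin-binding obst-A (-0.98 ± 0.16, adjusted p = 1.32e-06) and the chitin deacetylase-like Cda5 (-0.96 ± 0.04, adjusted p = 2.85e-25).

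Of 15 tested genes of chitin breakdown, 9 rose and 3 fell (median 0.25). The chitinase gene Cht7 rose by 0.89 ± 0.23 (adjusted p = 0.000869), and Idgf1, for a chitinase-like growth factor, by 0.54 ± 0.07 (adjusted p = 5.81e-09). Hexo2, for a hexosaminidase, rose by 0.52 ± 0.03 (adjusted p = 5.63e-20), and Cht6 fell (-0.51 ± 0.03, adjusted p = 4.6e-18). Of 11 genes of sclerotization and pigment, 2 rose and 7 fell (median -0.47): stw, a laccase that crosslinks cuticle, rose by 2.47 ± 0.07 (adjusted p = 6.16e-30), while amd (-0.95 ± 0.13, adjusted p = 4.61e-08) and ple (-0.64 ± 0.04, adjusted p = 1.35e-19) fell. ple encodes tyrosine hydroxylase and also serves dopamine synthesis in neurons. The tracheal markers, with Gasp on the chitin list too, summed to a median of 31.2 CPM on day 45 and 31.7 CPM on day 4, with 1 of 6 called as higher and 2 as lower. Most of these sums, which ran between 22.6 and 40.4 CPM, was trh alone, at 18.3 to 30.2 CPM. The near-equal medians thus say little of the rarer tracheal markers. Among markers of other cells, hemocyte markers summed to a median of 496 CPM on day 45 against 390 CPM on day 4 (3 of 4 called as higher). Fat body markers summed to 4230 CPM against 3580 CPM (3 of 5 higher) and lens markers to 0.155 CPM against 0.569 CPM (1 of 2 lower, the retinin named above). Filtered within a day, 2 lens markers passed on day 4 but 1 on day 45. Photoreceptor markers were at 1020 CPM against 1040 CPM (2 of 8 higher, 3 lower). A large part of these sums was norpA alone, at 526 to 634 CPM on day 45 and 637 to 829 CPM on day 4. The near-equal medians thus say little of the other photoreceptor markers, such as ninaE. Gut markers were at 3.15 CPM against 5.25 CPM (3 of 8 lower), and 8 of them passed the filter on day 4 but 4 on day 45. The pairs with a gut-high library on day 4 had 8 (sham virgin females), 4 (sham wildtype-mated females) and 5 (D3Inj males) lower calls. In sham males 3 were called as higher, and the other pairs had 0 calls. Muscle markers were at 26.2 CPM against 21.1 CPM (1 of 4 higher). The part of these cells in the age changes of the Cpr genes was not tested.

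In the injury contrasts, single kinds, means and joint tests alike, and in the mating contrasts, 0 genes of the 4 lists were called on either day. Between sham males and sham wildtype-mated females of day 4, 1 of 20 structural cuticle genes, 1 of 18 of chitin synthesis, 5 of 15 of chitin breakdown and 2 of 11 of sclerotization were called, where 6.25% of all features were. On day 45 the numbers were 1 of 24, 1 of 18, 4 of 15 and 0 of 11, where 4.25% of all features were called. Cht2, a chitinase gene, was lower in males on day 45 (log2 fold change -4.60 ± 0.30, adjusted p = 1.62e-10) and on day 4 (-3.31 ± 0.18, adjusted p = 2.39e-11). In these same contrasts TwdlG was higher in males, by 0.75 ± 0.09 on day 45 (adjusted p = 6.44e-06) and 0.44 ± 0.08 on day 4 (adjusted p = 0.00134).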

How the data were processed

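Per the labels and the study's methods, the authors removed rRNA, prepared directional libraries, aligned paired reads to dm6 with STAR and tallied genes with featureCounts. Genes followed an Ensembl annotation. Its release, the tools' versions and the strand setting: not given in the sources used here. Deposited values are raw counts, 1 column per library, with 23932 features, and 0 columns belonged to other samples. Symbols, lengths and positions came from an Ensembl annotation of the same assembly. Counts were tested with edgeR 4.0.16 (quasi-likelihood F test, TMM, filterByExpr, 1 coefficient per group) in R 4.3.3, on 24 libraries for a day and 48 for age. Each SE was the size of the log2 fold change divided by the root of its F value. DESeq2 1.42.0, RLE scaling, no filter, a replicate block, fewer or more libraries, leaving out libraries and the deposit record were alternatives. The members and lists were chosen with earlier results of these data known. Named were all called Cpr genes (the 15 of largest change where more were called), the 10 highest per kb and Cpr47Ef. The mean age and the age by injury contrasts, and leaving out Cpr72Ec-high libraries, were chosen after seeing the data. The fit was tested on simulated day 4 counts, in which only genes above a count floor were changed, in D3Inj males. Many of the tested Cpr genes lie below that floor, so the simulation does not cover them.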

Additional observations from a re-analysis of the deposited data

How the results depend on the processing

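Counts of called Cpr genes kept within 1.5 times of their value under RLE scaling and with the replicate block in each of the 29 contrasts. The replicate numbers did not pair the libraries (in no contrast did all 3 same-numbered pairs correlate above 0.1), and the block left the age calls at 10, 6, 5 and 9 (sham males, wildtype-mated, virgin and SP0-mated females) and 4, 7, 4 and 5 (D3Inj, same order). The deposit record in place of the headers gave 0 called Cpr genes in each of the 8 age pairs, in the age mean, in the day 4 injury contrast of males and of the mean, and between the sexes on day 45. That loss was not particular to Cpr genes. By the record 0 features in all were called in the age mean, against 10343 by the headers. In the other contrasts just named 0 features were called, save 1 with age in sham and 13 in D3Inj SP0-mated females. Without the 4 gut-high libraries there were 3 called Cpr genes with age in D3Inj males (3678 features in all, against 4590 in the main fit). There were 3 in D3Inj SP0-mated females (4840 features against 4996) and 1 between the sexes on day 4 (505 against 914). In sham virgin females 1 library was left in a group, so no count is given. Without the 4 Cpr72Ec-high libraries there were 3 with age in D3Inj males (3712 features against 4590) and 0 between the sexes on day 45 (458 against 650). In sham SP0-mated females 1 library was left in a group, and again no count is given. With the 6 libraries of the 2 groups alone there were 5 with age in sham SP0-mated females (3681 features in all) and 3 in D3Inj males (4359). There were 2 in each kind of D3Inj female (4262 features in wildtype-mated, 3568 in virgin and 4601 in SP0-mated females). The day 4 injury contrast of males had 0 (0 features in all) and the sexes on day 45 had 0 (428 features). No filter gave 3 with age in D3Inj SP0-mated females (4673 features in all). All 48 libraries in 1 fit gave 0 for injury in males on day 4 (0 features in all), 1 on day 45 (1 feature) and 2 between the sexes on day 45 (776 features). DESeq2 gave 1 for SP0 mating on day 4 (20 features in all), 1 for injury in males on day 45 (3 features) and 1 for the age by injury contrast (5 features). The cause of these shifts was not tested, save that smaller fits hold fewer libraries.

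Leaving out each library in turn gave 5 to 8 called with age in sham males, 3 to 6 in sham wildtype-mated, 3 to 5 in sham virgin and 7 to 11 in sham SP0-mated females. In D3Inj flies it gave 3 to 8 in males, 2 to 6 in wildtype-mated, 1 to 4 in virgin and 2 to 5 in SP0-mated females, and 16 to 21 for the age mean. Ranges of 0 to 1 held for injury in males on day 4, for the sexes on day 4 and on day 45, for the age difference among kinds and for the age by injury contrast. The uncalled day 45 injury difference of Cpr47Ef turned sign within -0.56 to 0.085 in males (0.085 when reversed), -0.36 to 0.156 in wildtype-mated females (0.137, 0.109 and 0.156 when reversed) and -0.18 to 0.012 in the mean (0.012 and 0.010 when reversed). At these depths 36 of 70 Cpr genes had too few counts to test.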
